A study of Mus musculus with 9 samples.

Results

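Of 22396 mouse gene identifiers in a count table, 10 were examined here, chosen by name as the kinases and core factors of the integrated stress response, and all 10 were in the table. They are Eif2ak1 (encoding the kinase HRI), Eif2ak2 (PKR), Eif2ak3 (PERK), Eif2ak4 (GCN2), Dele1, Eif2s1 (eIF2α), Ppp1r15a (GADD34), Ppp1r15b (CReP), Atf4 and Ddit3 (CHOP). The counts come from RIP-seq, in which RNA bound to FLAG-tagged RIG-I, a cytosolic sensor of foreign and misprocessed RNA, was immunoprecipitated with anti-FLAG beads and sequenced. The cells were B16F10, a mouse melanoma line, and all of them stably expressed FLAG-RIG-I together with an shRNA. The groups were shCtr (control shRNA), shOSGEP#1 and shOSGEP#2, the latter carrying different shRNAs against Osgep, with 3 libraries each, which a figure legend of the study gives as biological replicates from independent experiments. OSGEP is the enzyme within KEOPS, the complex that places t6A on tRNAs reading codons that start with A. Each shRNA was compared with shCtr, and the shRNAs with each other, to ask which of these transcripts differed in the RIG-I immunoprecipitate after OSGEP depletion. No input RNA was analysed here, so more binding to RIG-I and more transcript in the cell cannot be told apart in any of the values below.

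In the integrated stress response, 4 kinases phosphorylate eIF2α at a shared site, each on a different signal: HRI on heme shortage and on mitochondrial stress relayed by DELE1, PKR on double-stranded RNA, PERK on unfolded protein in the endoplasmic reticulum, and GCN2 on uncharged tRNA and stalled ribosomes. Phosphorylated eIF2α blocks its exchange factor eIF2B, general translation falls, and mRNAs with upstream reading frames such as Atf4 are translated better. ATF4 induces genes of amino acid supply and, with time, CHOP and GADD34; GADD34 and the constitutive CReP direct the phosphatase PP1 back to eIF2α. Activity of the pathway lies in phosphorylation and translation, which RNA counts do not measure.

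The libraries held 40333037, 47750758 and 41805753 counts in shCtr, 34551436, 50224299 and 30697653 in shOSGEP#1, and 25460689, 568995 and 14914731 in shOSGEP#2, for replicates 1, 2 and 3. The second shOSGEP#2 library was thus far shallower than the rest, with 4196 genes detected against 11733 to 13958 in the others. Of 6279 genes for which the other shOSGEP#2 libraries predicted at least 20 counts there, 45.6% had 0. It was left out of the fit of 8 libraries from which values are given unless another is named, its values are given apart, and fits of all 9 libraries are named as such. With it, a count of 0 allows up to 5.27 CPM (counts scaled to a library total of 1000000; the limit is 3 counts of the total), and a limit of this kind covers counting error only. In the fit of 8 libraries the shOSGEP#2 values therefore rest on 2 libraries, and a fit that leaves out either of them has a single library there, which is assumed to vary like those of the other groups. Differences were tested with edgeR over 12744 genes, and a gene was called at an adjusted p under 0.01.

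Osgep itself (ENSMUSG00000006289) was read first. It stood at 19.1, 19.9 and 15.5 CPM in shCtr, at 3.76, 1.15 and 1.53 CPM in shOSGEP#1, at 0.0786 and 2.88 CPM in shOSGEP#2 replicates 1 and 3, and at 0 in the shallow library. All deep libraries of both shRNAs lay below all of shCtr, as their labels say. The 0 of the shallow library cannot check its label, since 45.6% of genes with at least 20 predicted counts also had 0 there. The log2 fold changes were −3.10 ± 0.73 (SE; edgeR adjusted p = 0.0128) and −3.84 ± 0.93 (edgeR adjusted p = 0.0150), so neither passed the threshold in this fit. With no filter on low counts both were called (edgeR adjusted p = 0.000639 and 0.000838). DESeq2 called that with shOSGEP#2 (adjusted p = 0.00920), and edgeR on only the groups compared called that with shOSGEP#1 (adjusted p = 0.000973), as it did without either shOSGEP#2 library (edgeR adjusted p = 0.000964 without replicate 1 and 0.000920 without replicate 3). Without shOSGEP#2 replicate 3, when the 2 counts of replicate 1 are all that stands for shOSGEP#2, its difference was called too (log2 fold change −7.86, edgeR adjusted p = 0.00134), so the size of this fold rests on a single library; over all fits that left out a library it ran from −7.86 to −2.78. Ddx58, the gene of RIG-I, had 180, 184 and 278 CPM in shCtr, 232, 216 and 327 in shOSGEP#1 and 402 and 429 in shOSGEP#2. It had 0 counts in the shallow library, where 234 were predicted. Reads of the FLAG-RIG-I construct and of the cells' own gene cannot be told apart here. The Ddx58 difference missed the threshold with shOSGEP#1 (log2 fold change 0.26, edgeR adjusted p = 0.427) and with shOSGEP#2 (0.86, edgeR adjusted p = 0.0239). The latter was called without shCtr replicate 3 (edgeR adjusted p = 0.00898), with no filter on low counts (edgeR adjusted p = 0.00727) and with DESeq2 (adjusted p = 0.00289).

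The label of the cells was checked on marker genes. Of 7 melanocyte and melanoma markers (Mitf, Pmel, Dct, Tyr, Tyrp1, Mlana, Sox10) all were detected. Their summed level was 6336, 6039 and 8473 CPM in shCtr, 6288, 7565 and 6840 CPM in shOSGEP#1, 2617 and 3374 CPM in shOSGEP#2 and 1664 CPM in the shallow library. Thus the sum was lower in every shOSGEP#2 library than in the others, although Sox10 alone stood at 1089.6 CPM in the shallow library, above the 824 to 890.2 CPM of shCtr. With shOSGEP#2, 5 of the 7 were called lower against shCtr (Tyr, Pmel, Dct, Mlana and Sox10) by edgeR, where 9.55% of all tested genes were called, and 1 with shOSGEP#1 (Tyr), where 9.67% were. DESeq2 called 7 and 1 of them, where it called 18.9% and 20.1% of all genes it tested. The call of Mlana was lost without shOSGEP#2 replicate 3 (edgeR adjusted p = 0.0109) and that of Sox10 without shOSGEP#2 replicate 1 (0.0101). Fibroblast markers (Col1a1, Col3a1, Dcn, Lum, Pdgfra) summed to 2.97 to 4.57 CPM in shCtr, 2.77 to 5.18 in shOSGEP#1, 9.58 and 20.99 in shOSGEP#2 and 68.5 in the shallow library, with Lum at 0 in all libraries tested. Endothelial markers (Pecam1, Cdh5, Kdr) summed to at most 2.18 CPM and keratinocyte markers (Krt5, Krt14, Krt10) to at most 0.116 CPM, with Krt5 and Krt10 at 0 in all libraries tested. The part of the lower melanocyte sum in the shOSGEP#2 values that follow was not tested.

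Among the 10 genes, the PERK gene Eif2ak3 was the only one called against shCtr in the edgeR fit of 8 libraries described above, and it was called with each shRNA. Other settings of edgeR called Eif2s1 or Atf4 with shOSGEP#2, as given with those genes. In the fit over all genes, 1 of the 10 was called in every comparison, where the share of all tested genes called in either direction was 9.67% for shOSGEP#1 against shCtr, 9.55% for shOSGEP#2 against shCtr and 10.8% for shOSGEP#2 against shOSGEP#1. The members' share was therefore close to that of all genes, and the called genes are described singly. An unadjusted p under 0.05 was found in edgeR for 2, 3 and 3 of the 10, beside 34.9%, 35.6% and 37.1% of all tested genes. DESeq2 called 1, 2 and 2 of them, beside 20.1%, 18.9% and 21% of all genes. Voom with quality weights on all 9 libraries called 2, 1 and 1, beside 26.9%, 8.2% and 7.56%. DESeq2 on all 9 libraries called 0, 0 and 1, beside 0.908%, 2.6% and 3.22%. The median log2 fold change of the 10 was 0.08, 0.19 and 0.07 in these comparisons, beside 0.00, −0.06 and −0.04 over all tested genes.

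**Figure D1:**
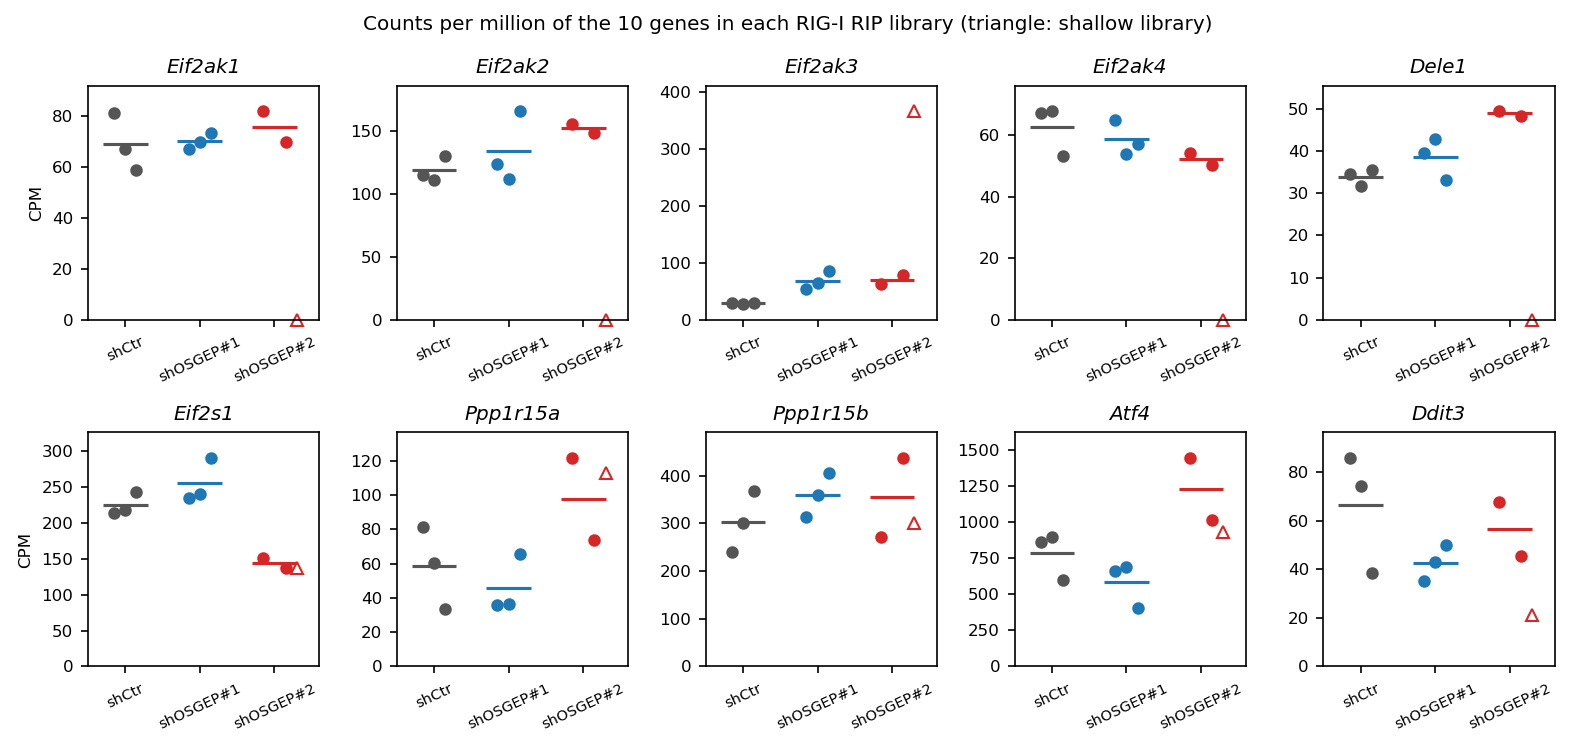
CPM (vertical axis, linear from 0) of the 10 genes in each library by group; filled points are libraries used in the tests, bars their mean, and the open triangle is the shallow shOSGEP#2 library. Eif2ak3 lies at 27.6 to 30.4 CPM in shCtr and at 54.9 CPM or more in each OSGEP-depleted library, whereas Eif2ak1 overlaps across the groups.

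Eif2ak3 (ENSMUSG00000031668) encodes the kinase in the endoplasmic reticulum membrane that reads unfolded protein in its lumen. It had 30.4, 27.6 and 29.8 CPM in shCtr (1227, 1318 and 1247 counts), 54.9, 64.4 and 85.5 CPM in shOSGEP#1, 62.5 and 79.9 CPM in shOSGEP#2 and 367 CPM (209 counts) in the shallow library. Every library of either shRNA was thus above every shCtr library, and the lowest of them was higher than shCtr by more than its whole range. The mean was 29.3 ± 1.49 CPM (SD, n = 3) in shCtr, 68.2 ± 15.7 (n = 3) in shOSGEP#1 and 71.2 ± 12.3 (n = 2) in shOSGEP#2. It rose 2.31-fold with shOSGEP#1 (95% interval 1.74 to 3.06; log2 fold change 1.21 ± 0.18 SE, edgeR adjusted p = 0.00154) and 2.27-fold with shOSGEP#2 (1.67 to 3.09; 1.18 ± 0.20, edgeR adjusted p = 0.00233). These comparisons share the shCtr libraries. The highest shOSGEP#1 value was that of replicate 3, which also had the highest share of mitochondrial transcripts of all libraries (2.96%). The call with shOSGEP#1 held without that library, and the part of this share in its value was not tested. The shRNAs set against each other gave a log2 difference of −0.03 with a 95% interval from −0.47 to 0.42 (edgeR adjusted p = 0.942), an interval that allows either shRNA to be the higher by those amounts. The call with shOSGEP#1 was lost without shCtr replicate 2 (edgeR adjusted p = 0.0128), and that with shOSGEP#2 without shCtr replicate 1 (0.0109), shCtr replicate 2 (0.0149) or shOSGEP#2 replicate 3 (0.0200), while the fold stayed between 1.01 and 1.35 on the log2 scale over all fits that left out a library. When the shallow library was put into the edgeR fit, which then called 0 genes of any kind, the log2 fold change was 1.20 with shOSGEP#1 (edgeR adjusted p = 1.00) and 2.02 with shOSGEP#2 (edgeR adjusted p = 0.278). DESeq2 on all 9 libraries did not call them either (adjusted p = 0.483 and 0.0166), whereas limma's voom with quality weights, which lets a library count for less, called both.

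Within a library, the share of the kinase genes' counts that fell on Eif2ak3 does not depend on scaling between libraries. It was 10.3% (95% Wilson interval 9.81 to 10.9), 10.1% (9.59 to 10.6) and 10.97% (10.4 to 11.6) in shCtr. It was 17.6% (16.9 to 18.4), 21.5% (20.8 to 22.1) and 22.4% (21.6 to 23.2) in shOSGEP#1, and 17.7% (16.9 to 18.5) and 22.9% (21.8 to 24.1) in shOSGEP#2. Each OSGEP-depleted library lay above all shCtr libraries, and the shRNAs overlapped each other. The intervals take reads as independent and cover counting error only, not the spread between libraries. In the shallow library all 209 kinase counts were of Eif2ak3, a share of 100% (98.2 to 100), where the other shOSGEP#2 libraries predicted 39.2 counts of Eif2ak3, 44.1 of Eif2ak1, 87.0 of Eif2ak2 and 29.9 of Eif2ak4.

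**Figure D2:**
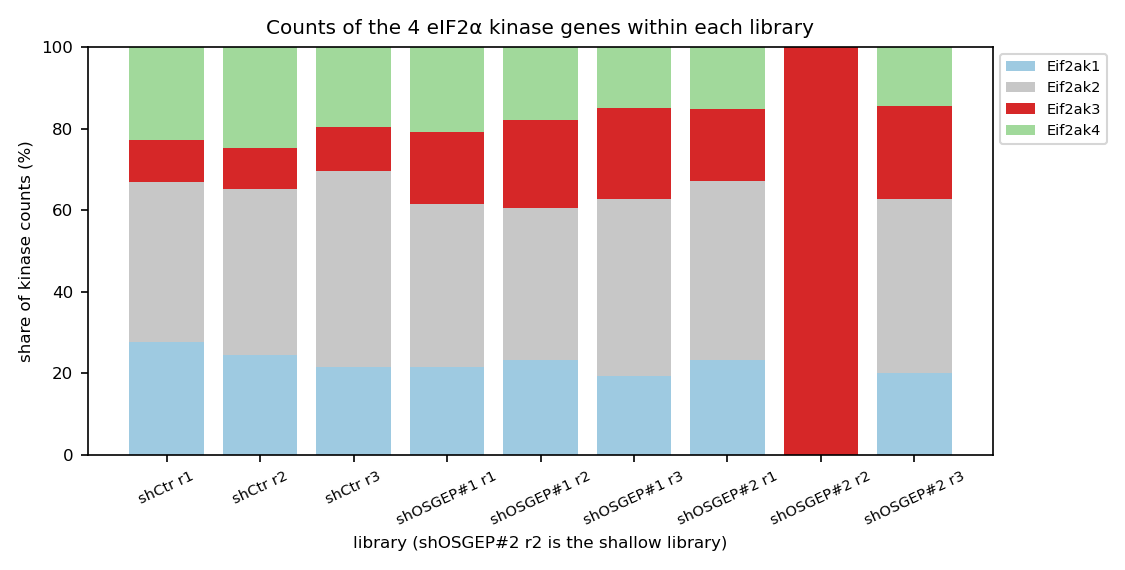
Share (vertical axis, percent) of the counts of Eif2ak1, Eif2ak2, Eif2ak3 and Eif2ak4 taken by each of these genes within every library (horizontal axis). The Eif2ak3 share is 10.1% to 10.97% in shCtr and 17.6% to 22.9% in the OSGEP-depleted libraries other than the shallow one, in which it is 100%.

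Eif2ak1 (ENSMUSG00000029613), the gene of the heme- and proteotoxic stress-regulated kinase HRI, was level across the groups. Its values were 81.3, 67.0 and 58.7 CPM in shCtr, 67.2, 69.7 and 73.3 CPM in shOSGEP#1, and 82.0 and 69.7 CPM in shOSGEP#2. The shCtr libraries alone spanned the whole range of shOSGEP#1. The fold change was 1.01 with shOSGEP#1 (95% interval 0.792 to 1.28, edgeR adjusted p = 0.969) and 1.03 with shOSGEP#2 (0.789 to 1.35, edgeR adjusted p = 0.872), intervals that leave room for differences of up to about that size in either direction. The shallow library held 0 counts of it. In the GENCODE M21 annotation, 487 exonic bases of Eif2ak1 lie opposite exons of Aimp2, which had 8608 counts in the table, and the use of strand in counting is not given in the sources used here, so reads over that stretch cannot be assigned with certainty.

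Eif2ak2, the gene of the double-stranded RNA-activated kinase PKR and itself induced by interferon, ranged from 111 to 130 CPM in shCtr and from 111.9 to 166 CPM in shOSGEP#1, and stood at 155 and 149 CPM in shOSGEP#2. The shOSGEP#2 libraries were above all of shCtr and the shOSGEP#1 libraries overlapped them, but neither difference passed the test (log2 fold change 0.16, edgeR adjusted p = 0.539, and 0.26, edgeR adjusted p = 0.334). Eif2ak4, the gene of the amino acid and ribosome stalling sensor GCN2, ranged from 53.2 to 67.7 CPM in shCtr, from 53.8 to 64.9 CPM in shOSGEP#1 and from 50.2 to 54.0 CPM in shOSGEP#2. Its groups overlapped and it was not called (log2 fold change −0.11, edgeR adjusted p = 0.667, and −0.36, edgeR adjusted p = 0.165). Both were at 0 in the shallow library. Dele1, whose cleaved product leaves stressed mitochondria to activate HRI, had 34.6, 31.6 and 35.5 CPM in shCtr, 39.5, 42.9 and 33.2 in shOSGEP#1, 49.4 and 48.3 in shOSGEP#2, and 0 in the shallow library. The pair of deep shOSGEP#2 libraries lay above all others, yet the difference from shCtr, 1.35-fold with a 95% interval of 1.04 to 1.75, was not called (edgeR adjusted p = 0.0951). For Eif2ak1, Eif2ak2 and Dele1 the shOSGEP#2 difference from shCtr turned negative once the shallow library was fitted (log2 fold change −0.51, −0.30 and −0.11).

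Eif2s1 (ENSMUSG00000021116), which encodes the α subunit of eIF2 that the kinases phosphorylate, separated the shRNAs. It had 214, 217 and 242 CPM in shCtr, 235, 240 and 291 CPM in shOSGEP#1, 151 and 138 CPM in shOSGEP#2, and 137 CPM (78 counts) in the shallow library. The shOSGEP#2 values, the shallow one included, were below every other library, whereas shOSGEP#1 and shCtr overlapped. Against shOSGEP#1 it fell by 0.90 on the log2 scale (SE 0.17; 95% interval −1.27 to −0.54; edgeR adjusted p = 0.00307). Against shCtr the log2 fold change was −0.73 ± 0.16 with shOSGEP#2, just over the threshold (edgeR adjusted p = 0.0102; 0.000405 with DESeq2), and 0.17 ± 0.14 with shOSGEP#1 (edgeR adjusted p = 0.439). The difference between the shRNAs lost its call when shOSGEP#2 replicate 3 was left out (edgeR adjusted p = 0.0319), as it did when only these groups were fitted (0.0157) and with edgeR on all 9 libraries (0.242), but DESeq2 and voom with quality weights on all 9 libraries called it. The difference of shOSGEP#2 from shCtr was called without shOSGEP#1 replicate 3 (edgeR adjusted p = 0.00483), with no filter on low counts (0.00699) and with at least 10 counts asked of every library (0.00922).

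The other parts of eIF2 and its exchange factor were read from a list of 8 genes (Eif2s2, Eif2s3x, Eif2s3y and Eif2b1 to Eif2b5), 7 of which passed the filter on low counts. Their median log2 fold change was 0.05 with shOSGEP#1 and −0.59 with shOSGEP#2, beside 0.00 and −0.06 over all tested genes. With shOSGEP#2, 1 of 7 was called lower, beside 9.55% of all tested genes called. The called gene was Eif2s3x, encoding the γ subunit of eIF2 that holds the initiator tRNA. It had 371, 420 and 419 CPM in shCtr, 397, 390 and 481 CPM in shOSGEP#1, and 245 and 214 CPM in shOSGEP#2, while the shallow library had 0. It fell by 0.90 on the log2 scale against shCtr (edgeR adjusted p = 0.00420) and by 0.96 against shOSGEP#1 (edgeR adjusted p = 0.00270). The first call was lost without any of the shCtr libraries or without shOSGEP#2 replicate 3 (edgeR adjusted p from 0.0116 to 0.0403) and the second without shOSGEP#2 replicate 3 (0.0292) or when only these groups were fitted (0.0145). With all 9 libraries both were lost in edgeR (adjusted p = 0.772 and 0.751), in DESeq2 and in voom with quality weights. The largest differences among the rest were those of Eif2b4 with shOSGEP#2 (log2 fold change −0.61, edgeR adjusted p = 0.0317) and Eif2b2 between the shRNAs (−0.74, edgeR adjusted p = 0.0423, and 0.00418 without shOSGEP#2 replicate 1); with shOSGEP#1 they were those of Eif2b1 (−0.24) and Eif2b4 (−0.19).

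Neither of the phosphatase subunits was called in any comparison. Ppp1r15a (ENSMUSG00000040435), the stress-induced subunit GADD34, had 81.2, 60.4 and 33.2 CPM in shCtr, 35.7, 36.5 and 65.6 CPM in shOSGEP#1, 122 and 73.6 CPM in shOSGEP#2, and 112.5 CPM (64 counts) in the shallow library. The shCtr libraries spanned the whole range of shOSGEP#1, and the shOSGEP#2 libraries lay above those of shOSGEP#1 but overlapped shCtr. The log2 difference between the shRNAs was 1.02 ± 0.37 (edgeR adjusted p = 0.0713), and those from shCtr were −0.35 ± 0.34 with shOSGEP#1 (edgeR adjusted p = 0.497) and 0.66 ± 0.37 with shOSGEP#2 (edgeR adjusted p = 0.230). Leaving out a library gave 0.57 to 1.36 between the shRNAs, −0.70 to −0.043 with shOSGEP#1 and 0.21 to 1.00 with shOSGEP#2. Ppp1r15b (ENSMUSG00000046062), the constitutive subunit CReP, ranged from 240 to 368 CPM in shCtr, from 313 to 405 in shOSGEP#1 and from 272 to 438 in shOSGEP#2, with 301 CPM in the shallow library. All 3 groups overlapped (log2 fold change 0.23, edgeR adjusted p = 0.472, and 0.12, edgeR adjusted p = 0.733). Of the counts of both subunit genes, Ppp1r15a took 25.3%, 16.7% and 8.28% in shCtr, 10.2%, 9.22% and 13.9% in shOSGEP#1, and 30.9% and 14.4% in shOSGEP#2. In the shallow library it took 27.2%. In this balance shCtr overlapped each shRNA, while the shOSGEP#2 libraries lay above those of shOSGEP#1. Of the 3 PP1 catalytic genes on the list (Ppp1ca, Ppp1cb, Ppp1cc), 0 were called with edgeR, DESeq2 or voom on all 9 libraries. Of all tested genes, edgeR called 9.67%, 9.55% and 10.8% in the 3 comparisons, DESeq2 20.1%, 18.9% and 21%, and voom 26.9%, 8.2% and 7.56%. On the list, 1 gene had an unadjusted p under 0.05 (35.6% of all tested genes did), Ppp1ca with shOSGEP#2 (log2 fold change −0.64, edgeR adjusted p = 0.0429). The other larger differences were −0.37 for Ppp1ca and 0.30 for Ppp1cb with shOSGEP#1, 0.40 for Ppp1cb with shOSGEP#2, and −0.27 for Ppp1ca and −0.26 for Ppp1cc between the shRNAs.

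Atf4 (ENSMUSG00000042406), the transcription factor at the output of the pathway, had the highest level of the 10 per transcript length in every group. Its values were 863, 897 and 597 CPM in shCtr, 661, 688 and 408 CPM in shOSGEP#1, 1449 and 1013 CPM in shOSGEP#2, and 931 CPM (530 counts) in the shallow library. The shOSGEP#2 libraries were above all others, the shallow one included, whereas shOSGEP#1 overlapped the lower end of shCtr. Against shCtr the log2 fold change was −0.44 ± 0.24 with shOSGEP#1 (95% interval −0.96 to 0.09, edgeR adjusted p = 0.219) and 0.56 ± 0.26 with shOSGEP#2 (−0.02 to 1.14, edgeR adjusted p = 0.151), so the point estimates had opposite signs and neither passed the test in this fit. With a block for the replicate number, edgeR called the shOSGEP#2 difference (log2 fold change 0.67, edgeR adjusted p = 0.00846). Within each replicate number, shOSGEP#1 lay below and shOSGEP#2 above shCtr, but the numbers were not taken as pairs, as given with the alternatives. The difference between the shRNAs was 2.00-fold (1.34 to 2.97, log2 difference 1.00 ± 0.26) and missed the threshold as well (edgeR adjusted p = 0.0194). It was called with DESeq2 (adjusted p = 0.000854), with no filter on low counts (edgeR adjusted p = 0.00420) and with that block (edgeR adjusted p = 0.000806). Leaving out a library gave log2 values of −0.60 to −0.23 with shOSGEP#1, 0.24 to 0.82 with shOSGEP#2 and 0.68 to 1.26 between the shRNAs. The library with the lowest Atf4 level, shOSGEP#1 replicate 3, also had the highest share of mitochondrial transcripts, 2.96% against 0.147% to 0.445% in the other deep libraries. The part of this in the values of that library, for Atf4 or any other gene, was not tested.

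Ddit3 (ENSMUSG00000025408), the gene of the ATF4 target CHOP, which promotes death in lasting stress, had 85.9, 74.1 and 38.6 CPM in shCtr, 35.0, 43.0 and 50.0 CPM in shOSGEP#1, 67.7 and 45.4 CPM in shOSGEP#2, and 21.1 CPM (12 counts) in the shallow library. All groups overlapped. The log2 fold change was −0.64 ± 0.28 with shOSGEP#1 (edgeR adjusted p = 0.126) and −0.31 ± 0.31 with shOSGEP#2 (edgeR adjusted p = 0.507). Voom with quality weights on all 9 libraries called the former (−0.84, adjusted p = 0.00437). Relative to Atf4, Ddit3 took 9.05%, 7.63% and 6.08% of the counts of both in shCtr, 5.03%, 5.89% and 10.9% in shOSGEP#1, and 4.46% and 4.29% in shOSGEP#2. The shOSGEP#2 libraries thus had the lowest proportion of Ddit3, below all of shCtr, and shOSGEP#1 replicate 3 the highest. In GENCODE M21, 68 exonic bases of Ddit3 lie opposite Mars, which had 24950 counts, and a second identifier carrying the Ddit3 name had 0.

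**Figure D3:**
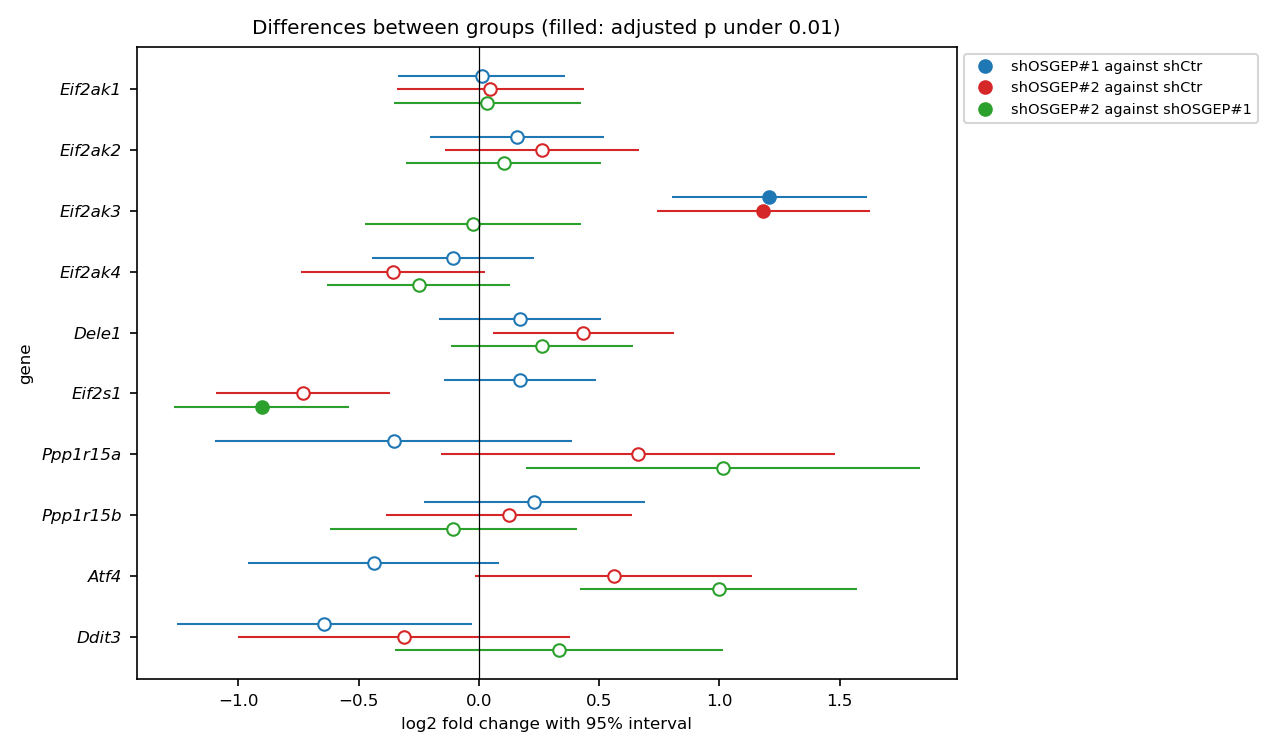
Log2 fold change (horizontal axis) of the 10 genes with 95% intervals from edgeR for shOSGEP#1 against shCtr, shOSGEP#2 against shCtr and shOSGEP#2 against shOSGEP#1; filled points passed an adjusted p of 0.01. Filled points are seen for Eif2ak3 with both shRNAs (1.21 and 1.18) and for Eif2s1 between the shRNAs (−0.90).

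Levels were compared between genes per length, as CPM per kilobase of the longest annotated transcript. In shCtr the order was Atf4 (389 ± 81.3, SD, n = 3), Ddit3 (68.3 ± 25.4), Eif2s1 (66.0 ± 4.47), Ppp1r15b (54.2 ± 11.5), Eif2ak2 (27.6 ± 2.34), Ppp1r15a (20.8 ± 8.57), Eif2ak1 (15.9 ± 2.65), Eif2ak4 (11.8 ± 1.55), Dele1 (7.56 ± 0.452) and Eif2ak3 (6.49 ± 0.329). The ranges of neighbours overlapped from Ddit3 to Ppp1r15b and from Eif2ak2 to Eif2ak1, so those genes were not ordered beyond their spread. Eif2ak3 was therefore the lowest of the 4 kinase genes in shCtr, and in shOSGEP#1 (15.1 ± 3.47) its range overlapped those of Eif2ak1 and Eif2ak4. In shOSGEP#2 it stood at 15.8 CPM per kilobase, next to Eif2ak1 at 17.5 and above Eif2ak4 at 9.83, with overlapping ranges for Eif2ak1 and not for Eif2ak4. Measured over all exons merged, Ddit3 dropped below Ppp1r15b and Eif2s1 in shCtr, and Dele1 and Eif2ak3 changed places.

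Genes around the kinases were read from lists. The list for PERK also holds genes of the other endoplasmic reticulum sensors, and its called genes were Ern1, Atf6, Xbp1 and Ero1l. Its calls are therefore not calls of PERK's regulators. Of 7 genes around PERK and the other endoplasmic reticulum sensors (Hspa5, Ero1l, Ern1, Atf6, Xbp1, Dnajc3, Hsp90b1), shOSGEP#1 gave 1 higher and 1 lower call, shOSGEP#2 gave 3 higher, and 2 were higher in shOSGEP#2 than in shOSGEP#1. These counts stand beside 9.67%, 9.55% and 10.8% of all tested genes called in these comparisons, and DESeq2 called 2, 3 and 3, beside 20.1%, 18.9% and 21%. Ern1, which encodes the sensor IRE1α, had 39.3, 39.9 and 41.2 CPM in shCtr, 59.8, 77.8 and 99.3 CPM in shOSGEP#1, 91.6 and 126 CPM in shOSGEP#2 and 336 CPM in the shallow library. It thus resembled Eif2ak3 in being above shCtr in all OSGEP-depleted libraries, with log2 fold changes of 0.96 (edgeR adjusted p = 0.00593) and 1.34 (edgeR adjusted p = 0.00159). The former call was lost in 5 of 8 fits that each left out a library (any shCtr library, or shOSGEP#1 replicate 2 or 3; edgeR adjusted p from 0.0177 to 0.0321) and the latter without shOSGEP#2 replicate 3 (0.0152).

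Atf6, encoding a further sensor that is cleaved to a transcription factor, had 58.8, 65.0 and 75.9 CPM in shCtr, 71.3, 86.0 and 92.8 in shOSGEP#1, 183 and 182 in shOSGEP#2, and 199 in the shallow library. It rose with shOSGEP#2 against shCtr (log2 fold change 1.36, edgeR adjusted p = 0.00045) and against shOSGEP#1 (1.05, edgeR adjusted p = 0.00153). Ero1l, an oxidase of disulfide formation that is also on the ATF4 and CHOP target list, rose with shOSGEP#2 from 118 to 163 CPM in shCtr to 435 and 575 CPM, with 125 CPM (71 counts) in the shallow library, inside the shCtr range (log2 fold change 1.72, edgeR adjusted p = 0.00062). Against shOSGEP#1 its log2 difference was 1.07 (edgeR adjusted p = 0.00761), a call lost in 6 of 8 fits without a library, all but those without shCtr replicate 3 or shOSGEP#1 replicate 3 (edgeR adjusted p from 0.0110 to 0.0627). Xbp1, whose mRNA is spliced by IRE1α, fell with shOSGEP#1 from 124 to 148 CPM to 66.9 to 81.9 CPM (log2 fold change −0.88, edgeR adjusted p = 0.00189; 0.0155 without shCtr replicate 2 and 0.0123 without shOSGEP#1 replicate 2), while shOSGEP#2 had 118 and 114 CPM and the shallow library 42.2 CPM.

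None of the 8 listed inputs of HRI was called with edgeR (Oma1, Yme1l1, Hspa8, Hsp90aa1, Hsp90ab1, Fech, Alas1, Abcb10); 4, 2 and 1 of them had an unadjusted p under 0.05 with shOSGEP#1, with shOSGEP#2 and between the shRNAs, DESeq2 called 0, 2 and 0, and voom on all 9 libraries 3, 2 and 0. Over all tested genes the shares were 34.9%, 35.6% and 37.1% at that unadjusted p. Those called were 9.67%, 9.55% and 10.8% with edgeR, 20.1%, 18.9% and 21% with DESeq2 and 26.9%, 8.2% and 7.56% with voom. Oma1, the protease that cleaves DELE1, stood at 4.33 to 5.60 CPM in shCtr, at 8.04 to 13.1 CPM in shOSGEP#1, at 9.90 and 3.35 CPM in shOSGEP#2, and at 0 in the shallow library. All shOSGEP#1 libraries were above shCtr and the shOSGEP#2 libraries lay on both sides of it (log2 fold change 1.01 with shOSGEP#1, edgeR adjusted p = 0.0908, and −0.63 between the shRNAs). The latter ran from −1.67 without shOSGEP#2 replicate 1 to −0.05 without shOSGEP#2 replicate 3, and the former was called only with voom on all 9 libraries. Alas1, the entry enzyme of heme synthesis, was at −0.64 with shOSGEP#1 (edgeR adjusted p = 0.0435, and 0.00782 without shCtr replicate 3). The chaperone genes Hspa8 and Hsp90aa1 were at −0.87 (edgeR adjusted p = 0.0189, and 0.00588 without shCtr replicate 3) and −0.58 (edgeR adjusted p = 0.0216) with shOSGEP#2, and Hspa8 at −0.68 between the shRNAs. The differences of both from shCtr were called with DESeq2 and with voom on all 9 libraries, that of Hspa8 also by edgeR with no filter on low counts, and that of Alas1 with voom.

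Among 6 regulators of PKR (Prkra, Tarbp2, Dnajc3, Adar, Nck1, Strbp), 0 were called in each comparison with edgeR, with DESeq2 and with voom on all 9 libraries, and 1, 0 and 1 had an unadjusted p under 0.05, beside 34.9%, 35.6% and 37.1% of all tested genes. Over all genes, edgeR called 9.67%, 9.55% and 10.8%, DESeq2 20.1%, 18.9% and 21%, and voom 26.9%, 8.2% and 7.56%. These shares also stand behind the lists for GCN2 and for initiation below. The largest differences were those of the RNA editor Adar (log2 fold change 0.45, edgeR adjusted p = 0.050) and Tarbp2 (−0.39) with shOSGEP#1, of Prkra (−0.27) and Nck1 (−0.27) with shOSGEP#2, and of Nck1 (−0.60) and Prkra (−0.29) between the shRNAs. The sign of Prkra turned when the shallow library, with 132 CPM (75 counts) of it, was fitted with edgeR (0.79 against shCtr and 0.77 between the shRNAs). Among 7 inputs of GCN2 (Gcn1l1, Impact, Map3k20, Rplp0, Rplp1, Rplp2, Rwdd1), 0 were called with edgeR, 3, 3 and 2 had an unadjusted p under 0.05, DESeq2 called 1, 1 and 0, and voom on all 9 libraries 2, 0 and 0. The ribosomal stalk genes Rplp0 (−0.60, edgeR adjusted p = 0.0412) and Rplp1 (−0.50) led with shOSGEP#1, and Map3k20, the gene of the ribosome collision kinase ZAK (0.60, edgeR adjusted p = 0.0275), and Rwdd1 (−0.59) with shOSGEP#2, while between the shRNAs Rwdd1 was at −0.53 and Map3k20 at 0.47. DESeq2 called the differences of Rplp0 and Map3k20 named here, and voom that of Rplp0. Among 7 genes of alternative initiation and reinitiation (Eif2a, Eif2d, Mcts1, Denr, Eif5, Eif5b, Eif1), 0 were called with edgeR, 0, 1 and 1 had an unadjusted p under 0.05, DESeq2 called 0, 1 and 0, and voom on all 9 libraries 0. They were led by Eif5b (0.38) and Mcts1 (−0.34) with shOSGEP#1, by Eif2a (−0.86, edgeR adjusted p = 0.0186, and 0.00644 without shOSGEP#2 replicate 3) and Denr (−0.19) with shOSGEP#2, and by Eif2a (−0.71) and Eif5b (−0.41) between the shRNAs. The difference of Eif2a from shCtr was called with DESeq2 and by edgeR with no filter on low counts.

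Genes downstream of ATF4 were read from a longer list. Of 30 listed ATF4 and CHOP targets, 27 were tested; shOSGEP#1 gave 4 lower and 1 higher call, shOSGEP#2 gave 4 higher and 1 lower, and the comparison of the shRNAs gave 9 higher in shOSGEP#2 and 1 lower, where 9.67%, 9.55% and 10.8% of all tested genes were called. The order of these counts depends on the tool: DESeq2 called 9, 8 and 13 of the list, beside 20.1%, 18.9% and 21% of all genes, and voom with quality weights on all 9 libraries 12, 4 and 9, beside 26.9%, 8.2% and 7.56%. The median log2 fold change of the list was −0.18 with shOSGEP#1, 0.37 with shOSGEP#2 and 0.69 between them. Over all tested genes it was 0.00, −0.06 and −0.04. Fold changes above 0 were found for 8 of the 27 with shOSGEP#1 and for 24 with shOSGEP#2. The share of all tested genes above 0 was not counted, and no test of the list as a set was run. The 3 comparisons share libraries, and Stc2, Fgf21 and Vldlr were at or near 0 throughout and did not enter the tests. The summed melanocyte level was lower in the same shOSGEP#2 libraries, as given above.

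Psph, the last enzyme of serine synthesis, had 96.3, 115 and 73.7 CPM in shCtr, 28.0, 25.5 and 16.1 CPM in shOSGEP#1, 138 and 154 CPM in shOSGEP#2, and 346 CPM in the shallow library. It fell by 2.04 on the log2 scale with shOSGEP#1 (SE 0.23, edgeR adjusted p = 0.00032) and stood 2.57 higher in shOSGEP#2 than in shOSGEP#1 (SE 0.24, edgeR adjusted p = 0.00012). Sesn2, a leucine-binding inhibitor of mTORC1, had 160, 167 and 168 CPM in shCtr, 70.3, 57.8 and 55.1 CPM in shOSGEP#1, 206 and 215 CPM in shOSGEP#2 and 0 in the shallow library. Chac1, which degrades glutathione, had 148, 176 and 115 CPM in shCtr, 65.1, 68.9 and 55.0 CPM in shOSGEP#1, 241 and 295 CPM in shOSGEP#2 and 0 in the shallow library. In all 3 of these genes the shOSGEP#1 libraries were below and the deep shOSGEP#2 libraries above every shCtr library, while in the shallow library Psph was above and Sesn2 and Chac1 below, and Sesn2 and Chac1 fell with shOSGEP#1 by 1.45 (edgeR adjusted p = 0.00017) and by 1.23 (edgeR adjusted p = 0.00111). Their differences from shCtr with shOSGEP#2 were not called. The shRNAs differed by 1.71 in Sesn2 and by 2.00 in Chac1 (edgeR adjusted p = 0.00010 and 0.00012).

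Ddit4, an inhibitor of mTORC1, also fell with shOSGEP#1 (log2 fold change −1.12, edgeR adjusted p = 0.00226; 0.0152 without shCtr replicate 2). Trib3, a pseudokinase that binds ATF4 and limits its action, had 241, 322 and 124 CPM in shCtr, 130, 124 and 75.2 CPM in shOSGEP#1, 580 and 720 CPM in shOSGEP#2 and 467 CPM in the shallow library. Its log2 differences were −1.08 (edgeR adjusted p = 0.0295, and 0.00558 without shCtr replicate 3) and 1.41 (edgeR adjusted p = 0.0134) against shCtr, both short of the threshold in this fit, and 2.48 between the shRNAs (edgeR adjusted p = 0.00064). DESeq2 called both differences from shCtr (adjusted p = 0.00165 and 0.000113), as did edgeR with no filter on low counts. Voom on all 9 libraries called the former, and edgeR on library totals or with at least 10 counts asked of every library the latter. Other targets higher in shOSGEP#2 than in shOSGEP#1 were Cth (2.65), Ddit4 (1.495), Psat1 (1.25), Ero1l (1.07) and Gdf15 (0.97), and Dusp4 was lower (−1.67). In the shallow library Ddit4 had 540 CPM, Gdf15 236 CPM and Psat1 193 CPM, and Cth and Dusp4 had 0. Between the shRNAs, Psat1 lost its call without shCtr replicate 2, shOSGEP#1 replicate 2 or either shOSGEP#2 library (edgeR adjusted p from 0.0106 to 0.0330). Gdf15 lost it without shCtr replicates 1 or 2, shOSGEP#1 replicates 1 or 3 or shOSGEP#2 replicate 3 (0.0132 to 0.0772), and Dusp4 without shOSGEP#1 replicates 1 or 2 or shOSGEP#2 replicate 1 (0.0104 to 0.0222).

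Against shCtr, shOSGEP#2 raised Gdf15, a secreted stress cytokine, from 34.6 to 45.9 CPM to 112.2 and 163 CPM (log2 fold change 1.65, edgeR adjusted p = 0.00050). Cth, which makes cysteine, rose as well (1.54, edgeR adjusted p = 0.00808), a call lost without any shCtr or shOSGEP#2 library or without shOSGEP#1 replicate 2 (edgeR adjusted p from 0.0109 to 0.0527). Dusp4, a phosphatase of MAP kinases, fell from 289 to 364 CPM in shCtr to 44.8 and 84.4 CPM (log2 fold change −2.43, edgeR adjusted p = 0.00057). Bbc3, the gene of the death-promoting BCL2 family member PUMA, was the only target called higher with both shRNAs. It had 22.5, 22.7 and 21.2 CPM in shCtr, 41.9, 45.7 and 55.0 CPM in shOSGEP#1, 47.4 and 43.8 CPM in shOSGEP#2 and 0 in the shallow library (log2 fold change 1.09, edgeR adjusted p = 0.00124, and 0.95, edgeR adjusted p = 0.00348). Without shCtr replicate 2 the former was at 0.0101, and the latter was lost without any shCtr or shOSGEP#2 library (0.0109 to 0.0181). Slc7a11, the cystine transporter, had the largest differences from shCtr on the list that were not called (−1.63 with shOSGEP#1, edgeR adjusted p = 0.0386, and −1.98 with shOSGEP#2, edgeR adjusted p = 0.0350); shCtr replicates 1 and 2 had 131 and 116 CPM and shCtr replicate 3 had 19.97 CPM, below the 22.03 to 35.5 CPM of the deep libraries of both shRNAs, and the shallow library had 0. Without shCtr replicate 3 both differences were called (−2.10, edgeR adjusted p = 0.000485, and −2.45, edgeR adjusted p = 0.000450), as they were by edgeR with no filter on low counts, and the former also with voom on all 9 libraries.

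**Figure D4:**
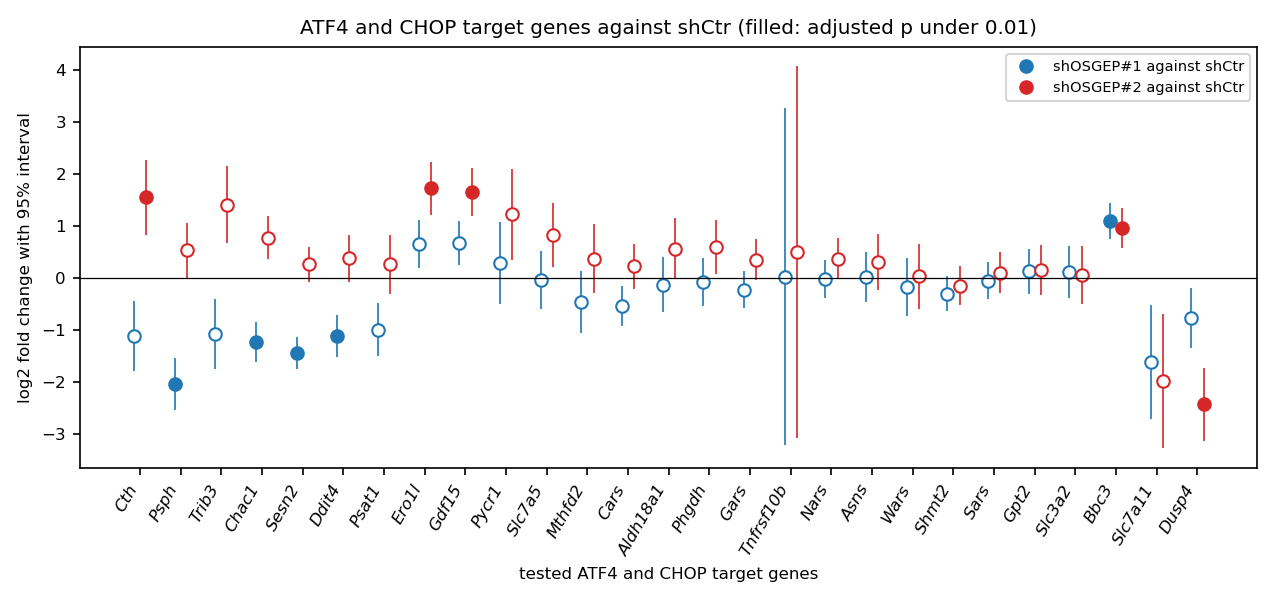
Log2 fold change (vertical axis) with 95% intervals of the 27 tested ATF4 and CHOP target genes (horizontal axis, ordered by the difference between the shRNAs) for shOSGEP#1 and shOSGEP#2 against shCtr; filled points passed an adjusted p of 0.01. Psph, Sesn2, Chac1 and Ddit4 are called lower with shOSGEP#1, Cth, Ero1l and Gdf15 higher and Dusp4 lower with shOSGEP#2, and Bbc3 higher with both.

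Partners and relatives of ATF4 among the bZIP factors and their cofactors were read from 11 genes (Atf3, Atf5, Cebpb, Cebpg, Cebpd, Nupr1, Batf3, Jun, Jund, Nfe2l2, Maf). With shOSGEP#1, 2 were called lower; with shOSGEP#2, 1 was called higher; between the shRNAs, 4 were higher in shOSGEP#2 and 1 lower. Of all tested genes, 9.67%, 9.55% and 10.8% were called in these comparisons, and DESeq2 called 3, 2 and 6 of the 11, beside 20.1%, 18.9% and 21%. Nupr1, a stress-induced chromatin cofactor, had 94.8, 64.1 and 41.5 CPM in shCtr, 19.5, 10.3 and 21.9 CPM in shOSGEP#1, 83.7 and 81.2 CPM in shOSGEP#2 and 149 CPM in the shallow library, falling by 1.97 on the log2 scale with shOSGEP#1 (edgeR adjusted p = 0.00211) and differing by 2.18 between the shRNAs (edgeR adjusted p = 0.00132). Cebpd stood at 1.86 to 2.28 CPM in shCtr, at 1.21 to 3.09 CPM in shOSGEP#1, at 11.8 and 20.7 CPM in shOSGEP#2 and at 82.6 CPM in the shallow library, a rise of 2.89 (edgeR adjusted p = 0.00128). Maf was higher in shOSGEP#2 than in shOSGEP#1 (log2 difference 1.26, edgeR adjusted p = 0.00072) and stood at 374 CPM in the shallow library, where Jund had 3352 CPM and Nfe2l2 0. Jund fell with shOSGEP#1 (−0.84, edgeR adjusted p = 0.00727) and was 0.85 higher in shOSGEP#2 (edgeR adjusted p = 0.00989), and Nfe2l2, the gene of NRF2, was lower in shOSGEP#2 than in shOSGEP#1 (−0.85, edgeR adjusted p = 0.00712). The Jund calls were lost without shCtr replicates 1 or 2 or any shOSGEP#1 library (edgeR adjusted p from 0.0184 to 0.0431 against shCtr), the latter also without shOSGEP#2 replicate 3 (0.107), and the Nfe2l2 call without any library but shOSGEP#2 replicate 1 (0.0116 to 0.0650). Batf3, at 2.14 CPM or less in shCtr, had a log2 fold change of −1.60 with shOSGEP#2 (edgeR adjusted p = 0.275). It was at 0 in shOSGEP#2 replicate 3 and in the shallow library, and was called without shOSGEP#2 replicate 1 (edgeR adjusted p = 0.00348), when shOSGEP#2 is a single library at 0 and its fold has no exact value. Among 5 genes of ATF4 turnover (Btrc, Fbxw11, Egln3, Trib3, Ep300), edgeR called only Trib3 and Egln3, both between the shRNAs, while 4, 2 and 4 of them had an unadjusted p under 0.05 with shOSGEP#1, with shOSGEP#2 and between the shRNAs. DESeq2 called 3, 2 and 2 of the 5 in these comparisons, and voom with quality weights on all 9 libraries 4, 0 and 2. Over all tested genes 34.9%, 35.6% and 37.1% were under that unadjusted p, and 9.67%, 9.55% and 10.8% were called with edgeR, 20.1%, 18.9% and 21% with DESeq2 and 26.9%, 8.2% and 7.56% with voom. Egln3, an oxygen-dependent prolyl hydroxylase, had 5.57 to 7.43 CPM in shCtr, 2.44 to 4.70 CPM in shOSGEP#1, 14.1 and 19.8 CPM in shOSGEP#2 and 0 in the shallow library (log2 difference between the shRNAs 2.24, edgeR adjusted p = 0.00106; against shCtr −1.01, edgeR adjusted p = 0.0399, and 1.23, edgeR adjusted p = 0.0248). Of the differences from shCtr, voom called the former and DESeq2 the latter.

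Over the 10 lists together, 85 genes other than the 10 were tested, and 10.6% of them were called with shOSGEP#1 (2 higher, 7 lower), 10.6% with shOSGEP#2 (7 higher, 2 lower) and 21.2% between the shRNAs (15 higher in shOSGEP#2, 3 lower). Beside the shares over all tested genes given above, the listed genes were thus called about as often as others against shCtr. Their median log2 fold change was −0.05, 0.06 and 0.10 in these comparisons, beside 0.00, −0.06 and −0.04 over all tested genes.

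Genes with the pattern most like that of single members were sought among 9329 tested genes of at least 10 CPM on average, by the Pearson correlation of log2 CPM over the 8 deep libraries, given as a description since the libraries share their groups. Atf4 was followed most closely by Afap1 (r = 0.991), Atp8b2 (0.989) and Ino80 (0.986), with 195 genes above 0.9. For Ddit3 they were Htatip2 (0.965), Nat9 (0.922) and Pfn2 (0.918), and for Eif2ak1 they were Inpp1 (0.959), Scaf1 (0.936) and Vps25 (0.920), with 6 and 3 genes above 0.9.

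Sequence around the annotated start of each gene from RefSeq (GRCm38.p6) was matched by symbol for 8 of the 10 genes, all but Ppp1r15b and Dele1, and was searched on both strands for motifs through which stress factors act. Sequence beyond that stretch was not searched, so an absence given here holds for the stretch alone. The C/EBP-ATF element TGATGNAA, found in 3.97% of 32851 promoters, the endoplasmic reticulum stress element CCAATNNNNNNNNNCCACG (0.119%) and its second form, ER stress element II (0.0365%), were in none of the matched promoters. The cAMP response element TGACGTCA, present in 1.79% of promoters, was found once, in that of Ppp1r15a, 12 to 5 bases before the start on the minus strand. It is shown with 4 bases on each side (chr7:45526269-45526284, gene strand, capitals marking the element) as the only match among them.
Ppp1r15a: ccggTGACGTCAgcac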

How the data were processed

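RNA bound to FLAG-RIG-I in B16F10 cells was sequenced by the authors in 9 libraries from stranded, rRNA-depleted preparations. Per the study's methods and the submitters' processing notes, reads were demultiplexed with bcl2fastq, trimmed with Trim Galore, aligned with STAR and quantified with Salmon on GRCm39. The authors deposited whole-number counts per Ensembl gene, not normalized; how these genes were chosen and whether counting used strand are not given in the sources used here. Of 22396 identifiers, 22237 were given symbols from GENCODE M21 (an earlier build, used for names and lengths only).

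From these counts, CPM was computed on library totals. Differences were tested with edgeR 4.0.16 (TMM, filterByExpr, quasi-likelihood test) in R 4.3.3 on 8 libraries of all groups. The library shOSGEP#2 replicate 2 was left out. Benjamini-Hochberg adjustment was over all tested genes. The threshold of 0.01 was that of the study, which tested with DESeq2 and not with edgeR. Intervals are 95%. The fits were tested on simulated counts of these libraries, with 200 genes changed by 2 on the log2 scale and a dispersion of 0.07 in every gene. There, edgeR recovered 198 of them with shOSGEP#1 and 183 with shOSGEP#2, with 2 false calls in each. Smaller changes, a spread that differs between genes and the shallow library were not simulated. Alternatives were DESeq2 1.42.0, limma 3.58.1 (voom with quality weights), other scalings and filters, all 9 libraries, a replicate block and leaving out each library.

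Genes named are the 10 members, Osgep, Ddx58, and, in each list, those past the threshold and the 2 with the largest absolute log2 fold change, with the likest genes of Eif2ak1, Atf4 and Ddit3. The members and lists were chosen with earlier results of these data known.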

Additional observations from a re-analysis of the deposited data

Results flagged for a closer look

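The effects of the shRNAs differed in the edgeR test of shOSGEP#2 against shOSGEP#1 (adjusted p under 0.01) for Eif2s1 (log2 difference −0.90) and for its partner Eif2s3x (−0.96), both lower in shOSGEP#2. The endoplasmic reticulum genes Ero1l (1.07) and Atf6 (1.05), the factors Cebpd (2.91), Nupr1 (2.18), Maf (1.26) and Jund (0.85), and the ATF4 regulators Trib3 (2.48) and Egln3 (2.24) were higher in shOSGEP#2, whereas Nfe2l2 (−0.85) was lower. Among the ATF4 and CHOP targets, Cth (2.65), Psph (2.57), Chac1 (2.00), Sesn2 (1.71), Ddit4 (1.495), Psat1 (1.25) and Gdf15 (0.97) were higher in shOSGEP#2 and Dusp4 (−1.67) was lower. Markers of cell type differed too: Dct (−2.38), Pmel (−1.97), Mlana (−1.46) and Sox10 (−1.04) were lower and Col1a1 (2.66) higher in shOSGEP#2. The Col1a1 call was lost without shCtr replicates 1 or 2, any shOSGEP#1 library or shOSGEP#2 replicate 3 (edgeR adjusted p from 0.0120 to 0.0801), and the value went to 1.73 without the last of these and to 3.23 without shOSGEP#2 replicate 1.

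In the shallow shOSGEP#2 library, which was left out of the edgeR fit of 8 libraries, Eif2ak3 (367 CPM), Ppp1r15a (112.5 CPM) and Atf4 (931 CPM) stood above the highest shCtr library. These values rest on 209, 64 and 530 counts, and 45.6% of the library's genes with a predicted count of at least 20 had 0; what sets these levels was not tested.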

How the results depend on the processing

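Genes called numbered 1232, 1217 and 1375 for shOSGEP#1 against shCtr, shOSGEP#2 against shCtr and shOSGEP#2 against shOSGEP#1. DESeq2 called 2420, 2395 and 2595, and an adjusted p under 0.05 gave 2797, 2674 and 2952. With all 9 libraries edgeR called 0, 0 and 0, with or without the block, DESeq2 122, 349 and 413, and voom with quality weights 3317 in the first. Fitting only the groups compared gave 737 in the last. Leaving out each library gave 318 to 1458, 518 to 1471 and 743 to 1504. Of the genes called with shOSGEP#2 against shCtr, 721 were higher, and 901 of 1276 on library totals. A replicate block gave 1380, 1238 and 1393, with Atf4 called at 0.67 with shOSGEP#2 and at 1.13 between the shRNAs (edgeR adjusted p = 0.00846 and 0.000806), with Trib3, Hspa8 and Eif2a called with shOSGEP#2 against shCtr, and with Jund and Col1a1 not called between the shRNAs. Correlations between libraries of different groups were taken on deviations from the group means. They were −0.0209 to 0.159 for the same number and −0.159 to 0.141 for different numbers. With the block, the common dispersion, edgeR's measure of spread between libraries, went from 0.0692 to 0.0586. The labels do not say whether a number marks a shared experiment, and these values do not settle it. The fit of 8 libraries took no pairs, and the values with the block are given beside it.

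Signs turned mostly when the shallow library was fitted, where the median over all tested genes was −0.37 for shOSGEP#2 against shCtr. The log2 values with edgeR, DESeq2 and the block on all 9 libraries were, for shOSGEP#2 against shCtr, −0.51, −0.56 and −0.88 for Eif2ak1, −0.30, −0.35 and −0.78 for Eif2ak2, −0.11, −0.16 and −0.43 for Dele1, −0.093, −0.10 and −0.13 for Ppp1r15b, −0.068, −0.10 and −0.30 for Ppp1cb, 0.79, 0.83 and 0.52 for Prkra and 0.18, 0.19 and 0.20 for Denr, with −0.19 for Ddx58 in the block. Between the shRNAs they were −0.51, −0.59 and −0.91 for Eif2ak1, −0.45, −0.53 and −0.88 for Eif2ak2, 0.82, 0.84 and 0.67 for Eif2ak3, −0.27, −0.34 and −0.64 for Dele1, −0.053, −0.095 and −0.22 for Ddit3 and 0.77, 0.80 and 0.51 for Prkra. With voom, Eif2ak1 with shOSGEP#1 was −0.026 and Eif2ak3 between the shRNAs 0.14, and on library totals the latter was 0.060. Leaving out a library gave ranges across 0 of −0.089 to 0.14, −0.11 to 0.19 and −0.12 to 0.18 for Eif2ak1 in the 3 comparisons, −0.026 to 0.27 and −0.0098 to 0.29 for Eif2ak2 with shOSGEP#1 and between the shRNAs, −0.18 to 0.17 for Eif2ak3 between them, −0.22 to 0.40 and −0.45 to 0.17 for Ppp1r15b with shOSGEP#2 and between them, −0.025 to 0.62 for Ddit3 between them and −0.013 to 0.71 for Ppp1cb with shOSGEP#2. The cause was not tested.

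Levels per kilobase in shCtr over all exons merged were 12.2 for Eif2ak1, 23.2 for Eif2ak2, 4.86 for Eif2ak3, 8.40 for Eif2ak4, 4.59 for Dele1, 45.4 for Eif2s1 and 38.6 for Ddit3, since the length is then greater. The other values kept their direction: 873 leave-one-out and 1205 other values were unchanged in direction and side of the threshold, 75 and 148 lost a call and 13 and 65 gained a call.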
